A study of Mus musculus with 18 samples.

Results

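The microglia genes described here are 33 transcripts named as a set of markers of microglia, the resident macrophages of the brain, and measured in bulk RNA of the mouse hippocampus. They were chosen by symbol from a list of marker genes, and all 33 were found among the 22063 gene identifiers of the count table. The study sequenced 18 hippocampus libraries of 4 groups, taken immediately after multi-axis rotation that was used to bring on vestibular disorientation. Mice of the S-V group (n = 5) were turned one way only, with sight occluded. Those of the D+V group (n = 5) were turned in both directions with sight left free. Those of the D-V group (n = 5) were turned in both directions with sight occluded, which the labels name a Coriolis illusion. The Control group (n = 3) was a blank control, of which the labels do not say whether it was placed in the device or had vision blocked. The labels give no strain, sex, age or length of rotation and do not say whether each library is 1 animal. The p-values therefore measure only how far these libraries spread, which may be technical.

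Microglia enter the brain from the embryonic yolk sac and are kept alive there by the receptor Csf1r. They survey their surroundings with fine processes, sense nucleotides and neuronal chemokine through P2ry12 and Cx3cr1, and take up debris and synapses tagged by complement. When they respond to injury or to infection, surveillance receptors are commonly lowered while lysosomal and pattern-recognition genes are raised. The myeloid transcription factor PU.1, encoded by Spi1, binds purine-rich sites with a GGAA core at many of these genes.

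For that reason the start regions of members were searched for PU.1-type letters. RefSeq promoter windows of 250 bases before to 50 after the start (build GRCm38.p6) were found for 25 of the 33 members. The letters GAGGAA, read on both strands, were present in windows of 16 of the 25 members (64%) and of 31.3% of all 27025 genes in the table. The longer GAGGAAGT, whose first 6 letters are the same motif, was present in 5 members (20%) and in 3.69% of genes. The composite of PU.1 with an interferon regulatory factor, GGAA and GAAA with 2 free bases between them, was present in 1 member, Cd68 (4%), and in 3.16% of genes. A match is a run of letters and not a measured binding site. The windows below are shown because they belong to neighbouring C1q genes, to Ctss, and to 2 members with low p-values in the rotation comparisons. Ctss had the highest level of the members per kilobase of transcript. Of the 2 members with low p-values, Cd53 has the motif and P2ry12 does not. All windows run 5′ to 3′ along the gene, end 30 bases after the start, and carry GAGGAA or its reverse complement in capitals. The positions are chr4:136886171-136886450 (minus strand) for C1qb, chr4:136892885-136893164 (minus strand) for C1qc, chr3:95526536-95526815 (plus strand) for Ctss, chr3:106790120-106790399 (minus strand) for Cd53 and chr3:59262956-59263235 (minus strand) for P2ry12.
C1qb: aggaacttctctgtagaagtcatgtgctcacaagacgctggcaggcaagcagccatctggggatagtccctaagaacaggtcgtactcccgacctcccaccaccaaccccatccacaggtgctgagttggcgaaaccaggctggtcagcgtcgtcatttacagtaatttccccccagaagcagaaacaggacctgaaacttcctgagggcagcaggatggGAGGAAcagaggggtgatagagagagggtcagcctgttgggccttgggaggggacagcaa
C1qc: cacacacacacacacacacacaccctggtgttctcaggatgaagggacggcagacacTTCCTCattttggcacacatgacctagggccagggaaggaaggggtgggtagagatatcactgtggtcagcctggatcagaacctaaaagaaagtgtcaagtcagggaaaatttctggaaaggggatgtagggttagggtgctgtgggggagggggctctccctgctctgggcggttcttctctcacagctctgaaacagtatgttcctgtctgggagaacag
Ctss: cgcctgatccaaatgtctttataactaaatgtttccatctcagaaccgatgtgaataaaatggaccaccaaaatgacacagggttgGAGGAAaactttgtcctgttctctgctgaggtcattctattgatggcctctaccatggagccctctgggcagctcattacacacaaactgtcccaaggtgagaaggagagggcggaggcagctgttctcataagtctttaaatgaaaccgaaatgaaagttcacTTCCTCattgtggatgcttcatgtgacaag
Cd53: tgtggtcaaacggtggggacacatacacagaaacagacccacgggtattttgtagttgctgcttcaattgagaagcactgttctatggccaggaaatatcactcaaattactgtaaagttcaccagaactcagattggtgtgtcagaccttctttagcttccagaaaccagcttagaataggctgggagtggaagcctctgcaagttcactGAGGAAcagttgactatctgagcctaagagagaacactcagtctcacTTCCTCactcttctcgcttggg
P2ry12: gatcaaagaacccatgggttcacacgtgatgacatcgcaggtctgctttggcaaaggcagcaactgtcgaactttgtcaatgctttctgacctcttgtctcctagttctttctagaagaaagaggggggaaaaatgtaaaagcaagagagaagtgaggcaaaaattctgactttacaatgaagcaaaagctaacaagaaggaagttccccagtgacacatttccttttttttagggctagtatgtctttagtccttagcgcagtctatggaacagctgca
The C1qc, Ctss and Cd53 windows each hold the longer GAGGAAGT on the opposite strand, printed as acTTCCTC, and those of Ctss and Cd53 hold a further GAGGAA on the gene's own strand. The P2ry12 window holds none of the 3 motifs, and nothing about PU.1 at that gene follows from its absence in this stretch.

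All 33 members had counts in every library, and all 33 passed the low-count filter that kept 14763 genes. The libraries held 15.03 to 25.31 M estimated counts. Levels are given as CPM, the count per 1 M of the library total after TMM scaling, which sets a common scale from the bulk of genes. Summed over the 33 members, the level was 921 ± 58.5 CPM in S-V, 885 ± 81 in the D+V group and 847 ± 28.6 in D-V (SD, n = 5 each), against 879 ± 13.8 CPM in Control (SD, n = 3). The sums ran from 827 to 974 in S-V, from 754 to 962 in D+V and from 816 to 875 in D-V, against 863 to 889 in Control, so all 3 rotated groups overlapped Control. D+V replicate 4 was the library with the lowest sum, at 754 CPM. In bulk RNA, fewer microglia and less RNA per microglial cell cannot be told apart.

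Levels between genes were compared per kilobase of the longest annotated transcript, which need not be the isoform expressed. On that scale cathepsin S (Ctss) was highest at 62.3 ± 6.94 CPM per kb over all 18 libraries (SD), followed by the C1q chains C1qa at 58.3 ± 6.87, C1qb at 55.1 ± 7.53 and C1qc at 48.4 ± 4.75. Each step between neighbours among these 4 was smaller than the larger SD of the pair. Csf1r followed at 26 ± 1.61, Tyrobp at 24.9 ± 3.6 and P2ry12 at 17.1 ± 2.13 CPM per kb. Selplg, Laptm5, Fcrls, Fcer1g, Tmem119, Fcgr3 and Cx3cr1 lay between 16.1 and 11 CPM per kb in that order. Lyz2, Cd68, Gpr34, P2ry13, Cd53, Olfml3, Slco2b1, Itgam and Aif1 lay between 9.43 and 5.06, and Siglech, Sall1, Ly86, Trem2, Inpp5d, Spi1, Cd14 and Irf8 between 4.87 and 1.47 CPM per kb. The lowest were Ptprc at 0.513 ± 0.131 and Tlr2 at 0.509 ± 0.24 CPM per kb, and Tlr2 had only 13 to 55 counts in a library.

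The markers of other myeloid and lymphoid cells were low. The summed level of 13 border-associated macrophage markers was 26.3 to 58.8 CPM over the 18 libraries, that of 12 blood monocyte and neutrophil markers was 1.36 to 26.2 CPM and that of 12 lymphocyte markers was 1.79 to 5.24 CPM. Choroid plexus markers, which come from the tissue that lines the ventricle beside the hippocampus, ran far wider, from 68.8 to 10900 summed CPM. Above 1200 CPM of them, which is 3 times the median library, lay replicates 2 and 4 of S-V, 2 and 5 of D+V and 3 and 4 of D-V, and no Control library. The cut fell between Control replicate 2, at 1090 CPM, and D+V replicate 5, at 1260 CPM. Libraries above it are called choroid-rich below, and Control replicate 2 stays in the fits that leave those out. The part of choroid tissue in the results below was not tested beyond the values given with the choroid-rich libraries left out.

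Other tissue markers also moved with the groups in the same fit. Pdgfrb, the receptor of pericytes, fell in D+V against Control by 0.51 on the log2 scale (SE 0.08, adjusted p 0.0153) and Cldn5, of endothelial tight junctions, by 0.58 (SE 0.13, adjusted p 0.0411), while Aqp4, the water channel of astrocytes, rose by 0.43 (SE 0.10, adjusted p 0.0411), all by edgeR. The 10 endothelial and pericyte markers summed to 360 to 383 CPM in S-V, 295 to 386 in the D+V group and 372 to 427 in D-V, against 370 to 435 in Control. Markers of the adjoining thalamus and habenula were below 0 for 10, 11 and 12 of 12 genes against Control in S-V, D+V and D-V, with sums of 135 to 187, 132 to 198 and 139 to 165 CPM against 152 to 245 in Control. Of that list, Synpo2 was at a log2 value of −0.47, −0.64 and −0.78 and Tcf7l2 at −0.44, −0.93 and −1.15 in the same comparisons (adjusted p of 0.0654 or more, edgeR). The 7 red blood cell markers were all above 0 in D+V and in D-V against Control, with median log2 fold changes of 1.507 and 1.169 and 5 genes in each at an unadjusted p under 0.05. Their sums were 935 to 1390 CPM in S-V, 717 to 3510 in the D+V group and 1300 to 2060 in D-V, against 775 to 972 CPM in Control, so that D-V lay wholly above Control. The part of these tissues in the microglia results was not tested.

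In the fit over all genes, no member passed an adjusted p of 0.05 (edgeR quasi-likelihood test, Benjamini-Hochberg over 14763 genes) in any of the 7 comparisons. The share of all tested genes that passed was 0% in S-V against Control, 0.942% in D+V against Control (139 genes) and 0% in D-V against Control. It was also 0% for the 3 rotated groups averaged against Control, for D-V against S-V, for D-V against D+V and for D+V against S-V. The comparisons with Control share the same 3 Control libraries. DESeq2, which called 759 genes in D+V against Control, called 1 member in S-V (P2ry12), 2 in the D+V group (Gpr34 and P2ry12) and 0 in D-V against Control, and Ctss in D+V against S-V. Limma voom called 2 (Gpr34 and Cd53), 4 (Cx3cr1, Gpr34, Cd68 and Itgam) and 0 members in the same comparisons with Control, and Ctss in D+V against S-V. Counts over all genes are not given here beside the other calls, so these calls do not compare the members with all genes.

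At an unadjusted p under 0.05, the members' shares lay near those of all genes in the comparisons with Control. In S-V against Control 5 of 33 members (15.2%) were below it, against 13.4% of all genes. In D+V against Control 6 members (18.2%) were, against 17.6% of genes. In D-V against Control 2 members (6.06%) were, against 6.02% of genes. Averaged over the rotated groups it was 4 members (12.1%) against 12.9% of genes, namely Gpr34 at a log2 fold change of 0.39 (SE 0.10), P2ry12 at 0.31 (SE 0.09), Cd53 at 0.35 (SE 0.11) and Ly86 at 0.44 (SE 0.15), with adjusted p of 0.135 to 0.239 (edgeR). After correction of every library for transcript GC content and length, described below, the shares were 15.2% of members and 7.21% of genes in S-V, 15.2% and 7.42% in D+V, and 12.1% and 5.49% in D-V, each against Control. The distance of the members' share from that of all genes thus depended on the setting. The median log2 fold change of the members was 0.040 in S-V, 0.044 in the D+V group and −0.047 in D-V, each against Control, beside medians over all genes of 0.002, −0.002 and 0.005 in the same comparisons.

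The precision behind these counts can be read from the intervals. The 95% interval of the fold change lay within 1.5-fold in either direction for 26 of 33 members in S-V, 27 in the D+V group and 27 in D-V, each against Control. It lay within 2-fold for 31 members in S-V, for all 33 in D+V and for 32 in D-V. Those that reached past 2-fold were Lyz2 and Tlr2. In the plot of fold changes by role, the 95% intervals of the C1q chains, the ITAM genes and the transcription factors include 0 in all 3 comparisons.

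**Figure D1:**
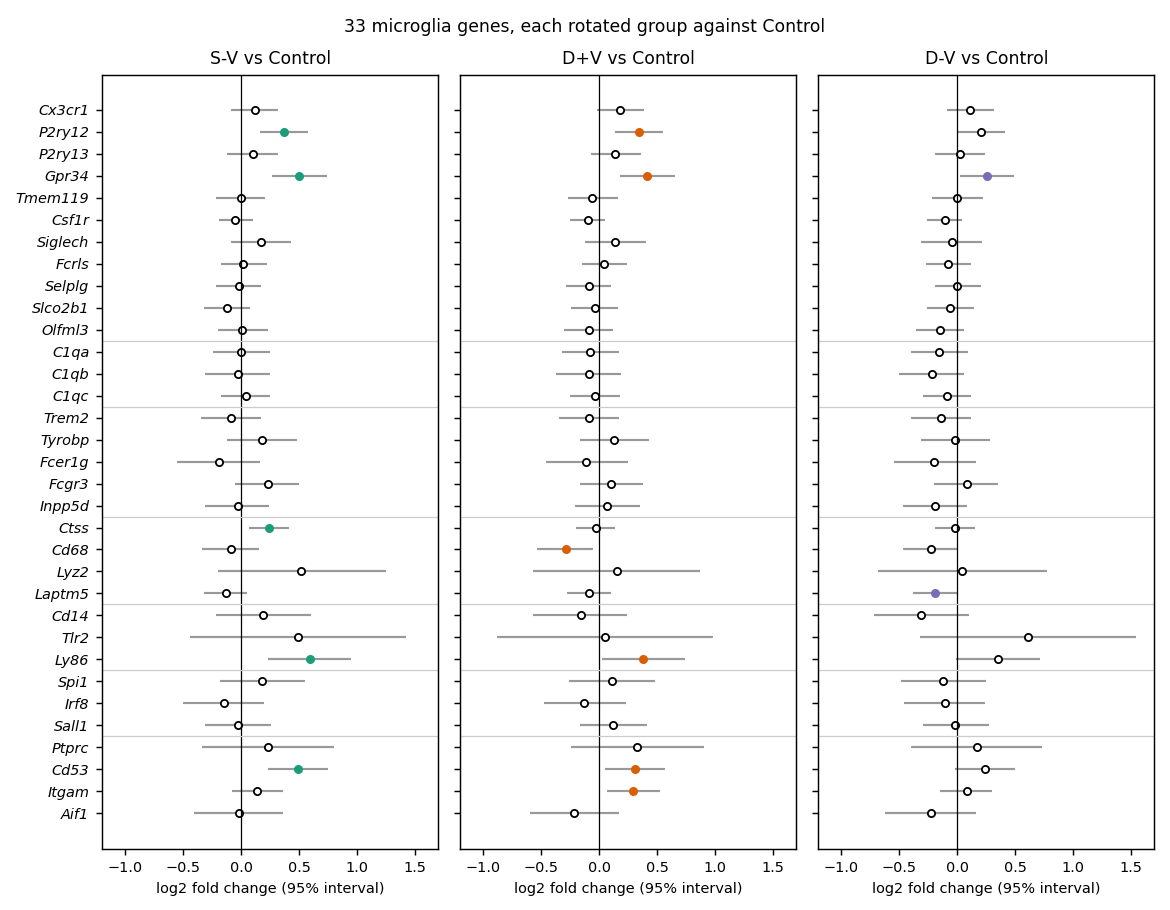
Log2 fold change (x axis) with 95% interval of each of the 33 microglia genes (rows, in blocks by role) in S-V, D+V and D-V against Control; filled points have an unadjusted p under 0.05. The filled points number 5, 6 and 2 in the 3 panels, and no gene passed an adjusted p of 0.05.

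The 11 surface receptors and identity markers include the genes by which microglia are usually told from other macrophages. Cx3cr1, the receptor for neuronal fractalkine, was at 50.5, 49.5, 53.3, 50 and 44.5 CPM in S-V, 42.2, 55.5, 58.4, 46.4 and 56.7 in the D+V group and 53, 48.6, 47.7, 45.4 and 52.2 in D-V, against 43.1, 42.8 and 51.1 CPM in Control. All 3 rotated groups overlapped Control. Its log2 fold changes against Control were 0.12 (SE 0.10) in S-V, 0.18 (SE 0.10) in the D+V group and 0.11 (SE 0.10) in D-V. Tmem119, a membrane protein of homeostatic microglia, ran from 25.3 to 32.2 CPM (median 29.1) in S-V, 24.7 to 32.7 (median 27.3) in the D+V group and 26.1 to 31.9 (median 29.2) in D-V, against 24.6 to 32.8 (median 30) in Control. It had group means of 29 ± 2.45 CPM in S-V, 28 ± 2.97 in the D+V group and 29.1 ± 2.45 in D-V (SD, n = 5 each), against 29.1 ± 4.18 in Control (SD, n = 3). Its log2 fold changes against Control were 0.00, −0.06 and 0.00 in S-V, D+V and D-V (SE 0.10 each).

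Csf1r, the survival receptor, varied least of all members beyond counting error, with a biological coefficient of variation of 7.11%. It was at 115 to 133 CPM with a median of 125 in S-V, 102 to 129 with a median of 123 in the D+V group and 113 to 125 with a median of 118 in D-V, against 126 to 133 with a median of 127 in Control. All 5 D-V libraries lay below the 3 Control libraries, by a narrow gap, and the log2 fold change was −0.11 (SE 0.07, adjusted p 0.857, edgeR).

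P2ry12, the ADP receptor that steers microglial processes, was at 41.4, 41.7, 45.7, 37.2 and 49.9 CPM in S-V, 43.6, 47.7, 39.6, 38.7 and 42 in the D+V group and 41.6, 40.9, 37.1, 37 and 35.7 in D-V, against 28.9, 37 and 34.4 CPM in Control. Every S-V and D+V library lay above every Control library, and D-V overlapped Control. The log2 fold changes against Control were 0.37 (SE 0.10, adjusted p 0.174) in S-V, 0.34 (SE 0.10, adjusted p 0.0848) in the D+V group and 0.20 (SE 0.10, adjusted p 0.822) in D-V by edgeR.

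Gpr34, a receptor for lysophosphatidylserine, had the smallest p of any member against Control in all 3 rotated groups. It was at 16.8, 13.5, 18.5, 13.9 and 17 CPM in S-V, 16.9, 14.1, 15.6, 13.4 and 15.1 in the D+V group and 13.6, 14.2, 14, 12.7 and 12.5 in D-V, against 11.1, 11.8 and 10.8 CPM in Control. All 15 rotated libraries lay above all 3 Control libraries. Gpr34 was the 1 member of 33 (3.03%) without overlap there, against 1.05% of all genes (155 genes, either direction). The log2 fold changes against Control were 0.50 (SE 0.11, adjusted p 0.145) in S-V, 0.41 (SE 0.11, adjusted p 0.0689) in the D+V group and 0.26 (SE 0.11, adjusted p 0.805) in D-V by edgeR, so none passed over all genes. Without D+V replicate 1, D+V against Control gave adjusted p of 0.047 for Gpr34, 0.0499 for P2ry12 and 0.0381 for Itgam (edgeR). That fit is 1 of 20 alternatives run for this comparison. Over the 20, Gpr34 was called in 4, P2ry12 in 2 and Itgam in 2. Counts over all genes are not given beside these calls.

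Of the other identity markers, P2ry13, another ADP receptor, was at 0.10, 0.14 and 0.02 log2 against Control in S-V, D+V and D-V, and the lectin Siglech was at 0.17, 0.14 and −0.05. Fcrls, an Fc receptor-like protein, Selplg, the ligand of P-selectin, Slco2b1, an organic anion transporter, and Olfml3, a secreted glycoprotein, lay between −0.15 and 0.04 in the same comparisons. Slco2b1 did not overlap between S-V and Control, with 23.1, 22.5, 23.1, 22.7 and 19.7 CPM in S-V, against 24.3, 23.6 and 24.6 CPM in Control, at a log2 fold change of −0.12 (SE 0.10).

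**Figure D2:**
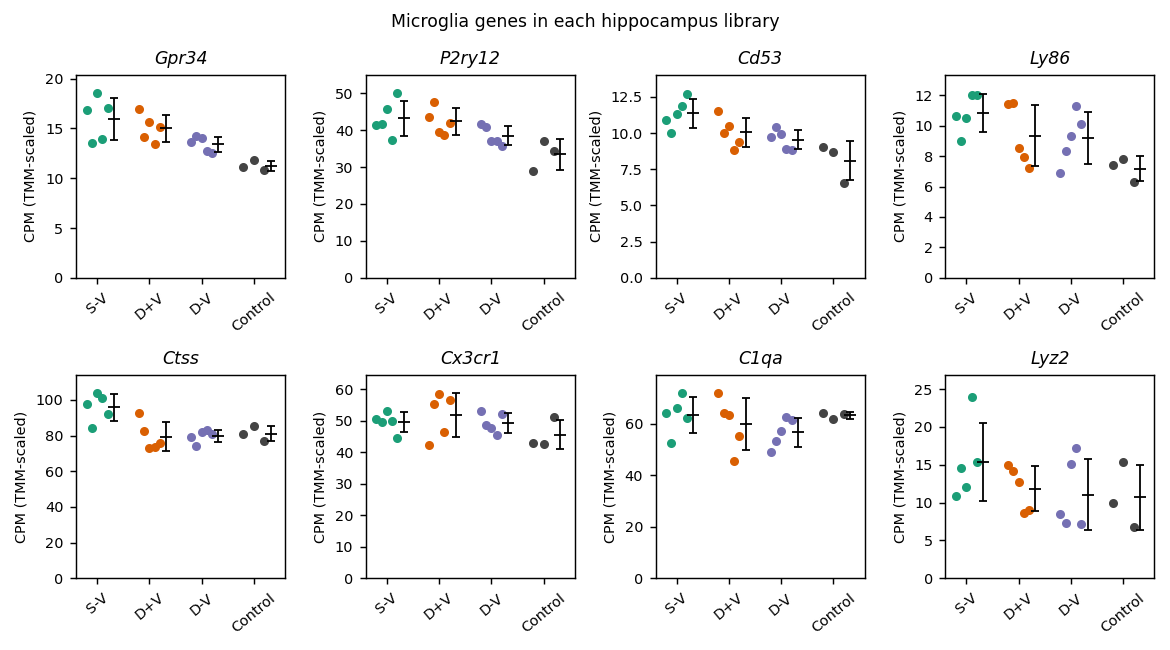
CPM (y axis, from 0) of 8 microglia genes in every library of S-V, D+V, D-V and Control; points are libraries, the bar beside them is the group mean with 1 SD. Gpr34 lies above its Control range of 10.8 to 11.8 CPM in all 15 rotated libraries. Of all genes, 1.05% separate rotated from Control libraries in either direction. Cx3cr1, C1qa and Lyz2 overlap Control in all 3 rotated groups.

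C1qa, C1qb and C1qc encode the 3 chains of C1q, which starts the classical complement cascade and tags synapses for removal. C1qa was at 64.3, 52.6, 66, 71.9 and 62.1 CPM in S-V, 71.9, 64.2, 63.5, 45.5 and 55.2 in the D+V group and 49.1, 53.5, 57.4, 62.6 and 61.5 in D-V, against 64.4, 61.8 and 63.9 CPM in Control. The D+V libraries spread most, on both sides of Control, and the lowest of all was D+V replicate 4. C1qb ran from 53.5 to 69 CPM (median 64.9) in S-V, 42.4 to 73 (median 59.9) in the D+V group and 45.9 to 59.3 (median 57.6) in D-V, against 59.7 to 66.3 (median 65.4) in Control, with D-V just below Control. C1qc ran from 50.5 to 67.2 CPM (median 63.8) in S-V, 47.8 to 63.2 (median 59.2) in the D+V group and 47.1 to 62.4 (median 56.4) in D-V, against 56.4 to 61.4 (median 59.7) in Control, with all groups overlapping.

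All 3 chains averaged lower in D-V than in Control without passing the test, with log2 fold changes of −0.16 (SE 0.12) for C1qa, −0.22 (SE 0.13) for C1qb and −0.09 (SE 0.10) for C1qc, with adjusted p from 0.853 to 0.916 (edgeR). In S-V they were at 0.00, −0.03 and 0.04 and in D+V at −0.08, −0.09 and −0.04. No interval against Control reached 1.5-fold in either direction for any of the 3 chains.

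Tyrobp and Fcer1g are adaptor proteins that carry an activating ITAM signal motif, Trem2 and Fcgr3 are receptors that pair with such adaptors, and Inpp5d is a lipid phosphatase that damps their signal. Trem2, which senses lipids and debris, was at 11.5 to 14.5 CPM with a median of 11.8 in S-V, 9.97 to 13.8 with a median of 12.7 in the D+V group and 10.3 to 13.9 with a median of 12 in D-V, against 12.3 to 13.6 with a median of 13.6 in Control. Tyrobp was at 14.9 to 17.7 CPM with a median of 15.7 in S-V, 11.6 to 19.6 with a median of 14 in the D+V group and 13.1 to 15.2 with a median of 13.7 in D-V, against 12 to 15.7 with a median of 14.4 in Control. Both genes overlapped Control in every rotated group. Fcer1g lay at −0.19, −0.11 and −0.20 log2 against Control in S-V, D+V and D-V, Fcgr3 at 0.23, 0.10 and 0.08 and Inpp5d at −0.03, 0.07 and −0.19.

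Of the lysosomal genes, Ctss, the cathepsin that also trims the invariant chain for antigen presentation, was at 97.7, 84.4, 104, 101 and 92.2 CPM in S-V, 92.7, 82.5, 72.8, 73.5 and 75.7 in the D+V group and 79, 74.4, 82.2, 83 and 80.7 in D-V, against 81.1, 85.3 and 76.7 CPM in Control. The S-V libraries were the high ones, with only replicate 2 inside the Control range, while D+V and D-V overlapped Control. Ctss in S-V stood at a log2 fold change of 0.24 against Control (SE 0.08, adjusted p 0.219, edgeR). Cd68, a lysosomal membrane protein used as a marker of phagocytic activity, was at 8.97 to 11 CPM with a median of 10.1 in S-V, 7.91 to 10.3 with a median of 8.51 in the D+V group and 8.54 to 10.3 with a median of 8.88 in D-V, against 9.09 to 12 with a median of 11.3 in Control. D+V and Control overlapped, at a log2 fold change of −0.29 (SE 0.12, adjusted p 0.193, edgeR). Laptm5, a lysosomal protein of leukocytes, was at 40.8, 38.3, 41.3, 42.9 and 39.7 CPM in S-V, 37.3, 50.8, 42.8, 35.3 and 43.1 in the D+V group and 40, 36.6, 41.8, 38.5 and 38.2 in D-V, against 45, 43.8 and 44.7 CPM in Control, so that S-V and D-V lay wholly below Control and D+V did not. Its log2 fold changes were −0.13, −0.09 and −0.19 (SE 0.09 each).

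Lyz2, the lysozyme of macrophages and neutrophils, was at 10.9, 14.6, 12, 24 and 15.3 CPM in S-V, 14.9, 14.1, 12.7, 8.59 and 8.96 in the D+V group and 8.53, 7.33, 15.1, 17.2 and 7.13 in D-V, against 9.95, 15.3 and 6.76 CPM in Control. The high D-V libraries were the 2 rich in choroid plexus markers, at 15.1 and 17.2 CPM, against 7.13 to 8.53 CPM in the other 3. In S-V the choroid-rich libraries were at 14.6 and 24 CPM beside 10.9 to 15.3 CPM in the others. In D+V they were at 14.1 and 8.96 CPM beside 8.59 to 14.9 CPM. Choroid-rich and other libraries thus overlapped in S-V and in D+V, and were apart in D-V only. With the choroid-rich libraries left out, Lyz2 in D-V differed from Control by a log2 value of −0.46 (SE 0.26, adjusted p 0.651, edgeR), in place of 0.04 (SE 0.34) with all libraries. Control replicate 2, with Lyz2 at 15.3 CPM and choroid plexus markers at 1090 CPM, was still in that fit. S-V replicate 4, the highest in Lyz2 at 24 CPM, also had the highest sum of blood monocyte and neutrophil markers, 26.2 CPM. D-V replicates 3 and 4 had 2.53 and 3.25 CPM of them. Border-associated macrophage markers summed to 52.3 CPM in S-V replicate 4 and to 58.8 and 53.5 CPM in D-V replicates 3 and 4. Their sum was 53.9 CPM in D+V replicate 2 (Lyz2 14.1 CPM) and 30.3 CPM in S-V replicate 5 (Lyz2 15.3 CPM). The part of either cell type in the Lyz2 level was not tested.

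The pattern-recognition genes were low in level. Tlr2, a receptor for bacterial lipoproteins, was at 1.07, 2.55, 1.17, 1.57 and 2.14 CPM in S-V, 1.09, 2.48, 1.22, 0.631 and 0.803 in the D+V group and 1.63, 0.873, 3.18, 2.50 and 1.10 in D-V, against 1.14, 1.35 and 1.12 CPM in Control. Again the 2 choroid-rich libraries were the highest of D-V, while in D+V they were the highest (2.48 CPM) and within the range of the others (0.803 CPM), and the log2 fold change in D-V was 0.61 (SE 0.45) with all libraries and 0.02 (SE 0.38) without the choroid-rich ones. Cd14, the co-receptor for lipopolysaccharide, lay at 0.19, −0.16 and −0.31 log2 against Control in S-V, D+V and D-V. Ly86, also called MD-1, the partner of the Toll-like protein RP105, was at 10.6, 8.97, 10.5, 12 and 12 CPM in S-V, 11.4, 11.5, 8.55, 7.96 and 7.23 in the D+V group and 6.86, 8.30, 9.34, 11.3 and 10.1 in D-V, against 7.44, 7.81 and 6.27 CPM in Control. Only S-V lay wholly above Control, and the log2 fold changes were 0.59 (SE 0.17, adjusted p 0.187) in S-V, 0.38 (SE 0.17, adjusted p 0.258) in the D+V group and 0.35 (SE 0.17, adjusted p 0.827) in D-V by edgeR. By limma voom the D+V value was 0.19.

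**Figure D3:**
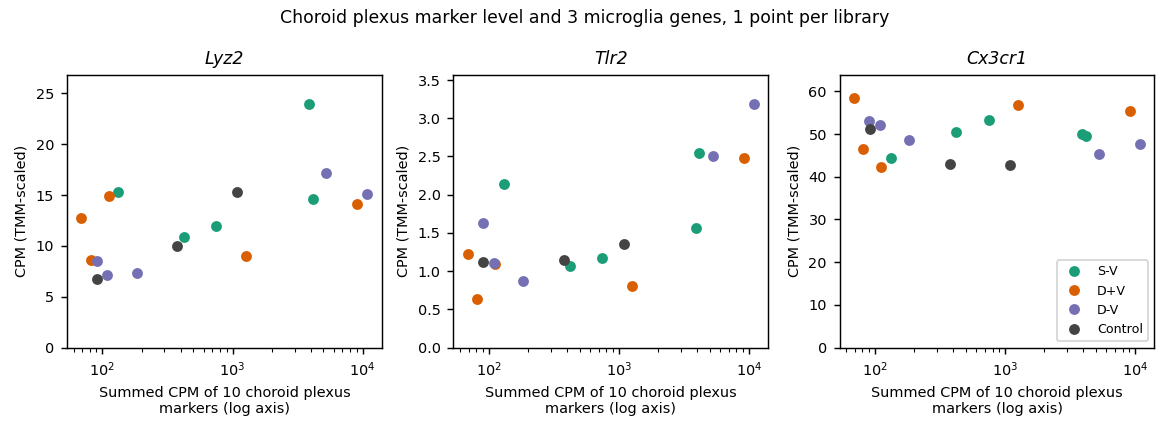
CPM of Lyz2, Tlr2 and Cx3cr1 (y axes, from 0) against the summed CPM of 10 choroid plexus markers (x axis, log scale), 1 point per library, coloured by group. The D-V libraries above 1200 choroid CPM are the highest D-V libraries for Lyz2 and Tlr2 and the lowest for Cx3cr1, at 47.7 and 45.4 CPM.

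The 3 transcription factors were Spi1, Irf8, which works with PU.1 in myeloid cells, and Sall1, which keeps microglial identity. Spi1 was at 3.69 to 5.77 CPM with a median of 4.53 in S-V, 3.43 to 4.82 with a median of 4.73 in the D+V group and 2.98 to 4.41 with a median of 3.78 in D-V, against 3.6 to 4.71 with a median of 3.97 in Control. All rotated groups overlapped Control for all 3 factors. Against Control, the log2 fold changes in S-V, D+V and D-V were 0.18, 0.11 and −0.12 for Spi1 (SE 0.18 each), −0.15, −0.13 and −0.11 for Irf8 (SE 0.17 each) and −0.03, 0.12 and −0.02 for Sall1 (SE 0.14 each). Sall1 had the largest spread in D+V, with 18.3 to 29.5 CPM (median 23.1) in the D+V group, against 19.1 to 23.5 CPM (median 20.2) in S-V, at a log2 fold change of 0.14 (SE 0.12) in D+V against S-V.

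Among genes shared by all leukocytes or of the cell skeleton, Ptprc, which encodes CD45, was at 2.10 to 4.47 CPM with a median of 2.61 in S-V, 2.25 to 3.74 with a median of 3.53 in the D+V group and 2.14 to 3.72 with a median of 2.57 in D-V, against 1.98 to 2.84 with a median of 2.82 in Control. Cd53, a tetraspanin, was at 10.9, 10, 11.3, 11.9 and 12.7 CPM in S-V, 11.5, 10, 10.5, 8.83 and 9.39 in the D+V group and 9.75, 10.4, 9.93, 8.89 and 8.82 in D-V, against 9.07, 8.67 and 6.56 CPM in Control. S-V lay wholly above Control for Cd53, and D+V and D-V overlapped it. The log2 fold changes of Cd53 against Control were 0.49 (SE 0.12, adjusted p 0.157) in S-V, 0.31 (SE 0.12, adjusted p 0.201) in the D+V group and 0.24 (SE 0.12, adjusted p 0.841) in D-V by edgeR. Without Control replicate 3, the library lowest in Cd53, the D+V value was 0.18. Itgam, the CD11b chain of complement receptor 3, was at 25.3, 22.5, 25.3, 26 and 21.5 CPM in S-V, 22.4, 29.3, 28, 23.3 and 31.3 in the D+V group and 24.5, 21.2, 23.8, 21.4 and 24.6 in D-V, against 20, 22.1 and 23.6 CPM in Control. Its log2 fold change in D+V was 0.29 (SE 0.11, adjusted p 0.161, edgeR) and 0.18 without the choroid-rich libraries. Aif1, the actin-binding protein IBA1 by which microglia are stained, lay at −0.02, −0.22 and −0.23 log2 against Control in S-V, D+V and D-V (SE 0.19 each).

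Counted by separation of the libraries, 6 of 33 members (18.2%) did not overlap between S-V and Control, 4 higher and 2 lower, against 12.4% of all genes. Between D+V and Control 2 members (6.06%), P2ry12 and Gpr34, did not overlap, against 7.63% of genes. Between D-V and Control 4 members (12.1%) did not, against 5.12% of genes, with Gpr34 higher and Csf1r, C1qb and Laptm5 lower.

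The members above 0 against Control were more often those with transcripts of low GC content, as were all genes. Of the 14 members below the median GC content of all genes (49.9%), 13 in S-V, 12 in the D+V group and 11 in D-V were above 0 against Control, and of the 19 members over it 7, 5 and 1 were. Over all genes below that median, 70.1% in S-V, 71.4% in the D+V group and 64.2% in D-V were above 0, and over those above it 31.1%, 27.7% and 38.6% were. Gpr34 (37.1% GC), P2ry12 (38.6%), Ptprc (39.4%), Cd53 (40%) and P2ry13 (44.7%) were the 5 members in the lowest of 4 equal classes of genes by GC content, and all 5 were above 0 against Control in all 3 rotated groups. Over all genes of that class the median log2 fold change was 0.126 in S-V, 0.179 in the D+V group and 0.075 in D-V, and over all genes of the highest class it was −0.111 in S-V, −0.124 in the D+V group and −0.04 in D-V. The medians of the 5 members were 0.370 in S-V, 0.331 in the D+V group and 0.204 in D-V.

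After correction of every library for its dependence on transcript GC content and length, the log2 fold change of Gpr34 against Control was 0.44 in S-V, 0.27 in the D+V group and 0.28 in D-V. That of P2ry12 was 0.28, 0.20 and 0.20, and that of Cd53 was 0.36, 0.19 and 0.20 in the same groups. Ctss in S-V was at 0.09 in place of 0.24, and Cd68 in D+V at −0.18 in place of −0.29. The smallest adjusted p of any member was then 0.362 in S-V, 0.556 in the D+V group and 0.888 in D-V (edgeR).

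**Figure D4:**
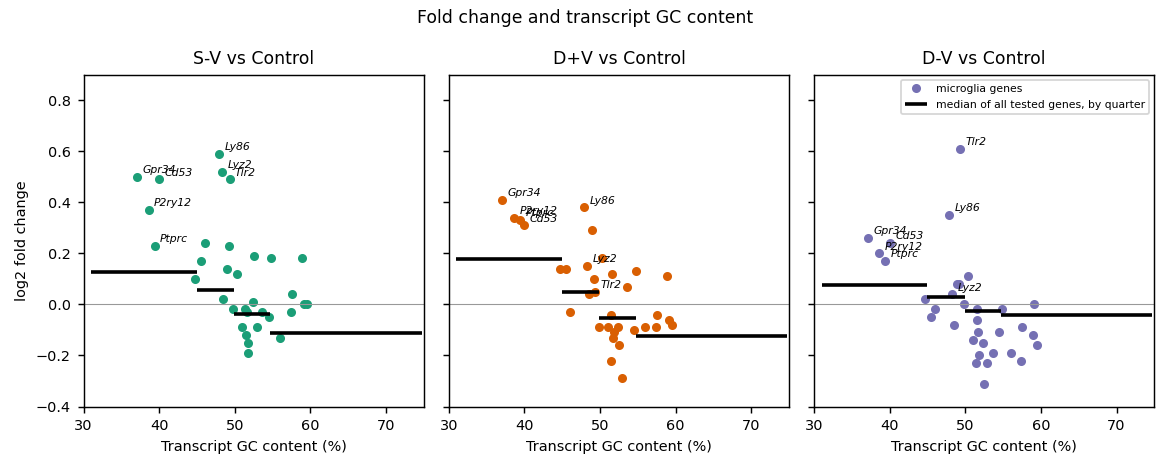
Log2 fold change (y axis) of the 33 microglia genes (points) against the GC content of the longest transcript (x axis, percent) in S-V, D+V and D-V against Control; black lines are medians of all tested genes in 4 equal classes by GC content. In the lowest class the line lies at 0.126, 0.179 and 0.075, and all 5 microglia genes there lie above 0.

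Comparisons between the rotated groups asked what vision and the number of directions added. D-V and S-V differed in the number of directions, and D-V and D+V in vision. D+V and S-V differed in both, so vision and direction cannot be told apart there. In D-V against S-V, 6 of 33 members (18.2%) were higher in D-V, against 49.9% of all genes, and the median log2 fold change was −0.134 beside 0.000 over all genes. On the lower side in D-V were all 3 C1q, 5 ITAM, 4 lysosomal and 4 leukocyte and cell skeleton genes. The ITAM genes ran from −0.192 to −0.003. Higher in D-V were 2 of 3 transcription factors, 1 of 3 pattern-recognition genes and 3 of 11 surface receptors and identity markers. The median of the 33 members was −0.11 after correction for GC content and length and −0.20 without the choroid-rich libraries. At an unadjusted p under 0.05 there were 4 members (12.1%), all lower, against 6.29% of genes. After the correction there were 7 (21.2%, against 4.28% of genes), and without the choroid-rich libraries 8 (24.2%, against 8.87%), all lower in D-V. The 4 were Ctss at −0.26 (SE 0.07, adjusted p 0.651), Cd14 at −0.50 (SE 0.17, adjusted p 0.675), Gpr34 at −0.25 (SE 0.10, adjusted p 0.748) and Cd53 at −0.25 (SE 0.11, adjusted p 0.750), all by edgeR. Corrected for GC content and length, Gpr34 was at −0.16 and Cd53 at −0.15. Ctss alone did not overlap, with D-V at most at 83 CPM and S-V at least at 84.4 CPM, where 2.05% of all genes did not overlap. Cd14 was at 2.66, 2.23, 3.37, 2.09 and 2.40 CPM in D-V, against 3.13, 3.29, 3.57, 3.77 and 4.23 CPM in S-V, and overlapped only through D-V replicate 3. Members share their libraries and are not independent observations. Markers of other cells went both ways. Of 6 blood monocyte and neutrophil markers, 0 were higher in D-V than in S-V (median −1.225, 2 at an unadjusted p under 0.05). Astrocyte markers were higher for 1 of 10 genes, and thalamus and habenula markers for 3 of 12. On the other side, 10 of 10 choroid plexus, 7 of 7 red blood cell and 8 of 10 endothelial and pericyte markers were higher in D-V. So were 7 of 10 neuron, 3 of 4 lymphocyte and 6 of 11 border-associated macrophage markers. The blood list summed to 1.75 to 3.73 CPM in D-V, against 1.97 to 26.2 CPM in S-V. The part of these cells in the members' result was not tested.

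In D-V against D+V, also 6 of 33 members (18.2%, against 52.3% of genes) were higher in D-V, with a median of −0.080 beside 0.009 over all genes. The 2 members at an unadjusted p under 0.05 (6.06%, against 13.6% of genes) were Itgam at −0.22 (SE 0.09, adjusted p 0.312) and Inpp5d at −0.26 (SE 0.12, adjusted p 0.328) by edgeR. Without the choroid-rich libraries Itgam was at −0.07 and Inpp5d at −0.04 (adjusted p 0.998 each, edgeR). After correction for GC content and length, 9 members (27.3%, against 7.43% of genes) were at an unadjusted p under 0.05, all lower in D-V, among them the 3 C1q chains, with a smallest adjusted p of 0.464 (edgeR). Inpp5d was at 11.9, 12.7, 11.6, 9.82 and 10.8 CPM in D-V, against 10.9, 15.8, 14.6, 11.3 and 15.8 CPM in D+V, with overlapping groups. On the higher side, Selplg was at 35.9 to 39.8 CPM (median 39) in D-V, against 32.6 to 37.8 CPM (median 35.6) in D+V, at 0.09 (SE 0.08). In the same comparison 1 of 10 astrocyte markers was higher in D-V (5 at an unadjusted p under 0.05, all lower) and 10 of 10 endothelial and pericyte markers were (4 under 0.05). The astrocyte list summed to 4130 to 4950 CPM in D-V, against 4610 to 6040 CPM in D+V, and the part of either cell type in the members' result was not tested.

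In D+V against S-V, 12 of 33 members (36.4%, against 48.9% of genes) were higher in D+V, with a median of −0.055 that ran from −0.102 to 0.007 over the alternatives. Ctss alone was at an unadjusted p under 0.05 (3.03% of members, against 12.8% of genes), with a log2 fold change of −0.27 (SE 0.07, adjusted p 0.189, edgeR). Without D+V replicate 1 it was −0.33 (adjusted p 0.00448, edgeR), and after correction for GC content and length −0.15 (adjusted p 0.598, edgeR). The D+V libraries of Ctss overlapped S-V through replicate 1 at 92.7 CPM.

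Members co-varied between libraries beyond their groups. After group means were removed, the median Pearson r over the 528 pairs of members was 0.28, with 408 pairs above 0, beside a median of 0 over pairs of all tested genes. After correction for GC content and length, the members' median was 0.21, with 391 pairs above 0. The median over pairs of all genes was not computed after that correction. The points are the same 18 libraries for every pair and share depth and dissection. The C1q chains correlated at 0.88 to 0.89 with each other, C1qa with Fcer1g at 0.93, Fcrls with Trem2 at 0.90 and Tyrobp with Ly86 at 0.80. After correction for GC content and length, Tyrobp with Ly86 was at 0.28, and the other pairs just named were at 0.71 to 0.86.

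A second set stood apart from these. Cx3cr1, Itgam, Slco2b1, Inpp5d and Sall1 correlated with each other at 0.55 to 0.86 (median 0.68), and with the set of C1qa, C1qb, C1qc, Tyrobp, Fcer1g, Fcrls, Fcgr3, Ly86 and Ctss at −0.47 to 0.25 (median −0.06). Both sets were named after their values were seen and carry no test. The first 5 have longest transcripts of 4381 to 5265 bases and the other 9 of 597 to 2684 bases. After the same correction for GC content and length, the median between the sets was 0.27 and the medians within were 0.55 for the 5 and 0.47 for the 9, where the 9 were at 0.73 before.

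**Figure D5:**
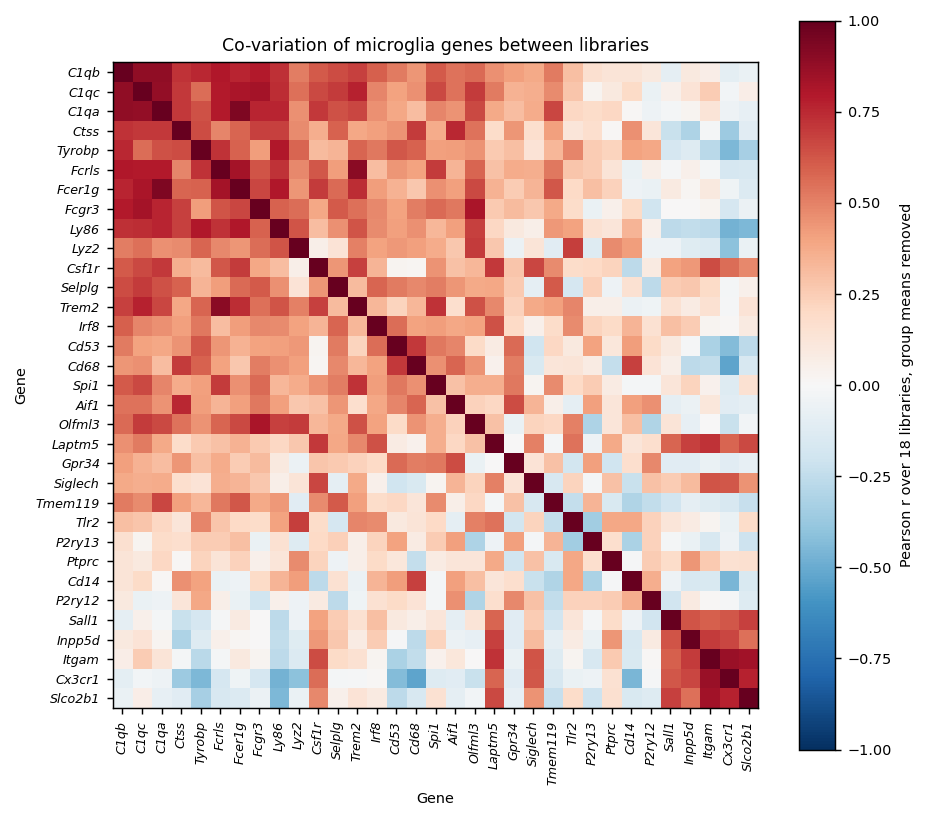
Pearson r over 18 libraries, group means removed, between each pair of the 33 microglia genes (rows and columns, ordered by their median r with the other members; colour from −1 to 1). The C1q chains at the upper left correlate at 0.88 to 0.89, and Sall1, Inpp5d, Itgam, Cx3cr1 and Slco2b1 at the lower right correlate with each other at 0.55 to 0.86.

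Lists of microglial genes outside the set had 0 genes called in any rotated group against Control (edgeR). Of 34 other microglia-enriched genes, 22 were above 0 in S-V, 22 in the D+V group and 15 in D-V, with medians of 0.074, 0.075 and −0.032, and 5, 7 and 2 genes had an unadjusted p under 0.05. Of all genes, 50.6%, 49.5% and 51.4% were above 0 and 13.4%, 17.6% and 6.02% had such a p, so the counts by p lay near the background. In D-V against S-V, 9 of the 34 were higher in D-V (median −0.129), against 49.9% of all genes. There 3 had such a p, all lower, against 6.29% of genes. In D-V against D+V, 14 were higher in D-V (median −0.050), against 52.3% of genes. There 7 had such a p, all lower, against 13.6% of genes. Of the 34, 3 did not overlap between S-V and Control, all higher, against 12.4% of all genes. Between D+V and Control 4 higher and 1 lower did not, against 7.63% of genes. Between D-V and Control 1 higher and 1 lower did not, against 5.12%. The genes named next had the smallest p of the list in their comparison. Tlr7, a receptor for single-stranded RNA, was at 4.49, 4.26, 3.39, 3.84 and 3.04 CPM in S-V, against 2.51, 2.21 and 2.77 CPM in Control, without overlap, at a log2 fold change of 0.61 (SE 0.19, adjusted p 0.202, edgeR). Ikzf1, a lymphoid and myeloid transcription factor, was at 4.44, 5.37, 6.51, 4.53 and 4.33 CPM in D+V, against 2.82, 3.43 and 2.72 CPM in Control, without overlap, at a log2 fold change of 0.75 (SE 0.19, adjusted p 0.0576, edgeR). Cd83, a marker of activated antigen-presenting cells, was at 16.9, 18.3, 16.3, 19.9 and 19 CPM in D-V, against 22.3, 23.1 and 23.5 CPM in Control, likewise without overlap, at −0.34 (SE 0.09, adjusted p 0.604, edgeR).

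Of 12 ligands and trophic signals for microglia, Cx3cl1, the fractalkine of neurons and ligand of Cx3cr1, was at 565 ± 48.4 CPM in S-V, 541 ± 36.9 in the D+V group and 573 ± 42.2 in D-V (SD, n = 5 each), against 642 ± 45.3 in Control (SD, n = 3). Its log2 fold changes were −0.18 (SE 0.08, adjusted p 0.319), −0.25 (SE 0.08, adjusted p 0.116) and −0.17 (SE 0.08, adjusted p 0.822) by edgeR. The Csf1r ligands Csf1 and Il34 lay between −0.14 and 0.03 against Control in all 3 groups.

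Genes of disease-associated microglia, a state seen around plaques and lesions, had medians of 0.066 in S-V, −0.049 in the D+V group and 0.009 in D-V over the 16 of 18 that could be tested, of which 0 had an unadjusted p under 0.05 in any rotated group. Cst7 and Clec7a, of that list, were under the filter with at most 9 and 6 counts in a library. Of 17 genes of the early inflammatory response 8 could be tested, with medians of 0.195, 0.149 and 0.160. Il1b, Tnf, Il6, Ccl2, Ccl3, Ccl4, Cxcl10 and Il1rn were under the filter, with at most 17 counts in any library, and Cxcl2 had 0 counts in all of them, so that these transcripts stayed at or near the floor of detection in every group and smaller changes were not detectable at this depth. Tnfaip3, an inhibitor of NF-kB that other brain cells also express, was at 7.05, 7.66, 10.5, 8.30 and 7.22 CPM in S-V, 8.24, 7.53, 7.26, 7.33 and 8.34 in the D+V group and 6.58, 8.39, 5.71, 8.48 and 9.99 in D-V, against 5.33, 5.46 and 6.03 CPM in Control. Its log2 fold changes were 0.54 (SE 0.16, adjusted p 0.202), 0.47 (SE 0.16, adjusted p 0.147) and 0.48 (SE 0.16, adjusted p 0.710) by edgeR.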

How the data were processed

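Bulk RNA-seq of 18 mouse hippocampus libraries was used (S-V, D+V and D-V, 5 each, and Control, 3). Per the labels' protocols, RNA was extracted with Trizol, selected by poly(A) and made into libraries with an NEBNext Ultra kit. The deposited values are estimated counts per Ensembl gene (7.35% of values were not whole), made by the authors with Bowtie2 2.2.8, HISAT2, StringTie 1.3.1 and DESeq2, per the submitters' processing notes, which give no roles. Build, annotation and strand use were not given in the sources used, so overlapping or antisense genes and near-identical copies are uncertain.

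Counts were rounded, filtered by filterByExpr (minimum count 10), scaled by TMM and tested with edgeR 4.0.16 in R 4.3.3 (quasi-likelihood, 4 group means in 1 fit, Benjamini-Hochberg over 14763 genes, called under 0.05). The script was tested on simulated data. Symbols were found for 21973 of 22063 identifiers. Transcript GC content and length come from the longest GENCODE M21 transcript, promoter windows from RefSeq (GRCm38.p6). Protein sequences were not used here. The members, gene lists and rules were chosen with earlier results of these data known. Named in full were 14 members fixed by role and those with the smallest p in each comparison (at most 2 in each direction), and of other lists those called or with the smallest p. Further members and listed genes were named after their values were seen. Alternatives were other scalings and filters, DESeq2 1.42.0, limma 3.58.1 voom (quality-weighted), fits of the compared groups alone, a replicate block, GC and length trends removed, choroid plexus markers as a covariate, choroid-rich libraries left out, and each library left out.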

Additional observations from a re-analysis of the deposited data

Results flagged for a closer look

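In groups of 5 libraries, a highest or lowest library far from the rest was looked for in each member and rotated group, 102 groups in all with the library scores, and 4 were found. Chance gives such a gap in about 1 in 20 groups. Slco2b1 was lowest in S-V replicate 5 at 19.7 CPM, with the next library at 22.5 CPM. Trem2 was highest in S-V replicate 1 at 14.5 CPM, with the next at 12.3 CPM. Spi1 was lowest in D+V replicate 4 at 3.43 CPM, with the next at 4.42 CPM, and this library also had the lowest sum of the members. Tyrobp was highest in D-V replicate 4 at 15.2 CPM, with the next at 13.7 CPM, and that library was rich in choroid plexus markers.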

How the results depend on the processing

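A library's score is its mean log2 CPM over the members, less the mean over all libraries. The SD of this score within groups was 0.064 in Control to 0.156 in D+V, wider than the main medians against Control. Under every alternative run the medians of the members moved by less than this spread, which is a loose limit for those against Control. They ran from 0.014 to 0.101 in S-V, −0.063 to 0.105 in the D+V group and −0.086 to −0.005 in D-V against Control, from −0.203 to −0.108 in D-V against S-V, and from −0.126 to −0.04 in D-V against D+V. The median was −0.102 to 0.007 in D+V against S-V and −0.025 to 0.056 for the rotated mean. The signs of the D+V median against Control and of these last 2 therefore depended on the setting. The count of members called was 0 in D-V against Control, in D-V against S-V and in D-V against D+V under every alternative. DESeq2 called 1 member in S-V against Control (P2ry12, adjusted p 0.0305), 2 in D+V against Control (Gpr34 and P2ry12), 1 for the rotated mean (P2ry12) and 1 in D+V against S-V (Ctss, adjusted p 0.0371). Limma voom called 2 (Gpr34 and Cd53), 4 (Cx3cr1, Gpr34, Cd68 and Itgam), 1 (Gpr34) and 1 (Ctss) in the same comparisons. With choroid plexus markers as a covariate, 1 was called in D+V against Control (Gpr34, adjusted p 0.0468). With single libraries left out, the count ran from 0 to 3 in D+V against Control and from 0 to 1 in D+V against S-V. D+V replicate 1 gave the upper ends: without it P2ry12, Gpr34 and Itgam passed against Control (adjusted p 0.0499, 0.047 and 0.0381) and Ctss against S-V (adjusted p 0.00448). The cause was not tested. Counts over all genes are not given beside the calls under these alternatives, so the calls do not compare the members with all genes.

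Deviations of same-numbered libraries from their group means correlated at −0.45 to 0.34. Differently numbered libraries were not set beside them, so this does not decide whether replicate numbers pair the libraries. With the replicate block, 0 members were called in every comparison, and the median was 0.046 in S-V, 0.059 in the D+V group and −0.014 in D-V against Control. Depth limits Tlr2 most, with 13 to 55 counts per library, and the Control group has only 3 libraries.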
